A study of Homo sapiens with 28 samples.

Results

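HT-1080 cells, a human fibrosarcoma line widely used to study ferroptosis, were compared after treatment with CLA18:3, the more unsaturated of the conjugated fatty acids in the series, and after treatment with the GPX4 inhibitor RSL3 together with CLA18:2, the less unsaturated one. All 4 libraries of each of these groups were taken, 8 of the 28 libraries in the series, and all 16325 genes that passed the filter on low counts were tested. The CLA18:3 cells received 5 µM CLA18:3 and no RSL3, and the RSL3+CLA18:2 cells received 10 nM RSL3 and 80 µM CLA18:2. Treatment lasted overnight in both groups, and DMSO was the vehicle of the control group. The other groups were RSL3 alone, CLA18:2 alone, linoleic acid (LA), and RSL3 with LA. The doses come from the study's design text, since the sample labels write mM for the fatty acids. The fatty acid, its dose and the presence of RSL3 all differ between the groups, so their shares in a difference cannot be told apart. The line carries no engineered change named in the labels, and the 4 replicates of a group are called independent in the design text.

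Ferroptosis is an iron-dependent form of cell death in which phospholipids with polyunsaturated chains are peroxidised. The selenoenzyme GPX4 reduces lipid peroxides with glutathione, and RSL3 blocks it. Cells under lipid peroxide and electrophile stress raise antioxidant genes through the transcription factor NRF2 and amino acid response genes through ATF4, while fatty acids also act on transcription through SREBP, which drives sterol and lipid synthesis genes, and PPAR, which drives fatty acid oxidation genes.

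Counts assigned to genes ran from 19089021 to 22928018 per library in CLA18:3 and from 17731009 to 22468321 in RSL3+CLA18:2. Thinned to a common total of 16226270 counts, CLA18:3 libraries detected 19370 ± 806.4 genes and RSL3+CLA18:2 libraries 20022.5 ± 1115 (mean ± SD, n = 4 each; exact permutation test, p = 0.314), against 22730.8 ± 119.2 in DMSO. The spread between libraries was also wider than in DMSO: the biological coefficient of variation was 19.9% in CLA18:3, 15.1% in RSL3+CLA18:2 and 4.52% in DMSO. In bulk RNA, fewer cells of a kind and less RNA per cell cannot be told apart. The p-values set the differences between groups against the spread between these libraries only.

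The difference between the conditions was spread over many genes and was mostly small. Of the 16325 genes, 2115 (13%) differed between CLA18:3 and RSL3+CLA18:2 at an adjusted p under 0.05 in edgeR's quasi-likelihood test. Of these, 1045 (6.4%) were higher in CLA18:3 and 1070 (6.55%) were lower. These shares of all genes are the background for the counts of list members given below. Their median absolute log2 fold change was 0.35, and 98 genes (0.6%) were at least 2-fold apart, 76 higher and 22 lower in CLA18:3. The ranges of the 4 and 4 libraries did not overlap for 2800 genes (17.2%). Genes named below for the largest differences were chosen among genes without overlap, so for them a lack of overlap adds no support. By comparison, 5124 genes (31.4%) differed between CLA18:3 and DMSO, 2826 (17.3%) higher and 2298 (14.1%) lower. Between RSL3+CLA18:2 and DMSO, 5621 genes (34.4%) differed, 2996 (18.4%) higher and 2625 (16.1%) lower. The last 2 comparisons share the DMSO libraries, and each shares libraries with the direct comparison, so their values are only set side by side below. All levels are CPM, counts scaled to library size and composition, and all fold changes are log2 values of CLA18:3 over RSL3+CLA18:2 unless the text says otherwise.

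Sterol synthesis genes were higher in CLA18:3. Of 24 tested genes of cholesterol synthesis and SREBP2 control (25 in the list), 21 were higher and none was lower, with a median log2 fold change of 0.66 against 0.02 over all genes tested. INSIG1, the sterol-sensing protein that holds SREBP in the endoplasmic reticulum, was at 118, 125, 126 and 114 CPM in CLA18:3 and at 59.6, 59.2, 59.3 and 58.6 CPM in RSL3+CLA18:2. The groups did not overlap, and the log2 fold change was 1.03 ± 0.06 (SE; adjusted p = 1.9e-09, edgeR). MSMO1, a sterol demethylation enzyme, was at 120, 136, 137 and 115 CPM in CLA18:3 and 57.4, 60.2, 55.8 and 60.5 CPM in RSL3+CLA18:2, a log2 fold change of 1.12 ± 0.07 (adjusted p = 2.4e-09, edgeR). Every CLA18:3 library was again above every RSL3+CLA18:2 library. HMGCS1, which makes HMG-CoA, was at 157, 146, 162 and 151 CPM against 88.1, 79.2, 79.5 and 80.2 CPM. The log2 fold change of HMGCS1 was 0.91 ± 0.06, with an adjusted p of 3.4e-09 (edgeR), and its groups did not overlap. CYP51A1, the lanosterol demethylase, and TM7SF2, a sterol reductase, were among the 3 genes of the list that did not pass, with 95% intervals of 0.15 to 1.06 and -0.61 to 0.38.

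Against DMSO the same list differed in where it stood. In RSL3+CLA18:2, 21 of the 24 genes were lower than DMSO and none was higher, with a median log2 fold change of -0.80. In CLA18:3, 6 were lower and 3 were higher, with a median of -0.04. INSIG1 averaged 124 CPM in DMSO, 130 CPM in RSL3 alone and 50.8 CPM in CLA18:2 alone. The level of INSIG1 in RSL3+CLA18:2 thus lay near that of CLA18:2 alone, and its level in CLA18:3 near that of DMSO. SREBF2, the gene of SREBP2 itself, was at 193, 170, 176 and 182 CPM in CLA18:3 and 130, 129, 109 and 140 CPM in RSL3+CLA18:2, a log2 fold change of 0.51 ± 0.07 (adjusted p = 5.1e-05, edgeR) with no overlap.

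**Figure D1:**
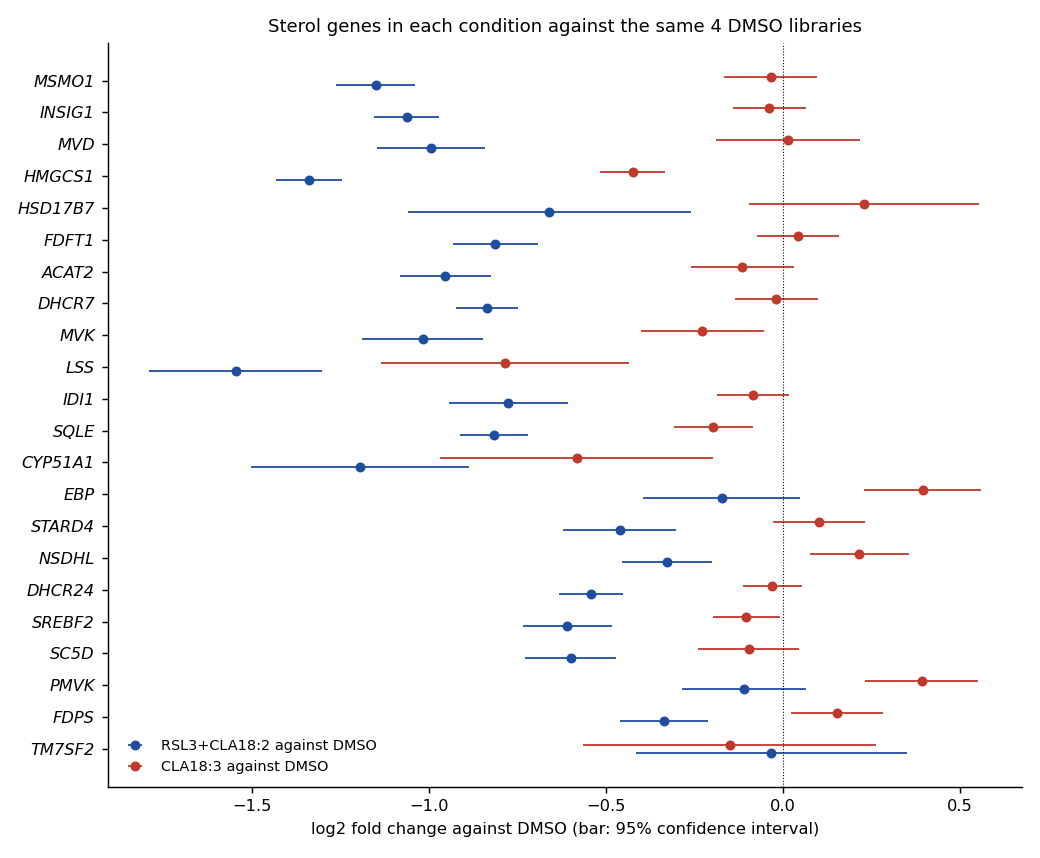
log2 fold changes (horizontal axis) of 22 of the 24 sterol genes in RSL3+CLA18:2 (blue) and in CLA18:3 (red), each against the same 4 DMSO libraries, ordered by the direct difference, with 95% confidence intervals. The RSL3+CLA18:2 values lie mostly left of 0, with a median of -0.80 over the 24 genes, and the CLA18:3 values lie closer to 0, with a median of -0.04.

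The 250 bases before the RefSeq start site of SREBF2 (GRCh38.p14, chr22:41832855-41833104, plus strand) are shown because this was the only promoter of the list, of 18 with a RefSeq window, that held the sterol element searched. The element was TCACNCCAC on either strand, shown in capitals 133 to 125 bases before the start. It occurred in 1.39% of the 27305 genes with a window (250 bases before to 50 after the start). A match describes letters and not a bound site.
SREBF2: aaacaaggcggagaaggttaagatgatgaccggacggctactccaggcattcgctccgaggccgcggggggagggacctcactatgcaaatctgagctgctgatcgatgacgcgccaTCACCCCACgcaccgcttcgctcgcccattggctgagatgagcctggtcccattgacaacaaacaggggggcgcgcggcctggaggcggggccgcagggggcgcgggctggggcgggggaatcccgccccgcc

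Fatty acid synthesis and desaturation genes moved less uniformly, with 6 of 17 higher and 2 lower in CLA18:3. SCD (chr10:100347124-100364834, plus strand), which places the double bond in stearate, was at 367, 349, 331 and 370 CPM in CLA18:3 and at 147, 147, 144 and 154 CPM in RSL3+CLA18:2. It had a log2 fold change of 1.26 ± 0.05 (adjusted p = 9.7e-12, edgeR) and the groups lay far apart. SCD averaged 424 CPM in DMSO and 141 CPM in CLA18:2 alone. FADS2, the delta-6 desaturase, was at 135, 121, 125 and 141 CPM in CLA18:3 and 92.7, 93.0, 91.9 and 84.9 CPM in RSL3+CLA18:2 (0.53 ± 0.06, adjusted p = 1.4e-05, edgeR). FASN, the fatty acid synthase, had a smaller difference of 0.26 ± 0.06 (adjusted p = 0.0096, edgeR). The members lower in CLA18:3 were GPAM, a glycerol-3-phosphate acyltransferase of mitochondria (-0.58 ± 0.11), and ELOVL6, a fatty acid elongase (-0.41 ± 0.10), with adjusted p of 0.00093 and 0.012 (edgeR).

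Genes of mitochondrial fatty acid import and oxidation held some of the largest differences in the other direction. CPT1A (chr11:68754620-68844410, minus strand), the carnitine palmitoyltransferase that commits long-chain fatty acids to mitochondria, was at 11.9, 13.5, 14.6 and 11.8 CPM in CLA18:3 and at 54.4, 57.2, 56.9 and 56.9 CPM in RSL3+CLA18:2. It was 4.36-fold lower in CLA18:3 (log2 -2.12 ± 0.10, adjusted p = 2.8e-11, edgeR), and no library of one group came near the other. CPT1A averaged 9.69 CPM in DMSO and 56.3 CPM in CLA18:2 alone, the latter close to RSL3+CLA18:2. SLC25A20, the carnitine-acylcarnitine carrier that acts after CPT1A, was at 8.22, 14.3, 10.3 and 11.6 CPM in CLA18:3 and 26.8, 26.0, 28.7 and 28.5 CPM in RSL3+CLA18:2 (-1.31 ± 0.14, adjusted p = 4.1e-06, edgeR). ACAA2, a thiolase of beta-oxidation, was at 35.3, 37.3, 31.8 and 35.6 CPM against 73.1, 65.5, 67.6 and 63.6 CPM (-0.95 ± 0.08, adjusted p = 1.9e-07, edgeR). Neither SLC25A20 nor ACAA2 overlapped between the groups. ETFDH, which passes electrons from beta-oxidation to the respiratory chain, was lower by a log2 of 0.66 in size (-0.66 ± 0.10, adjusted p = 0.00025, edgeR).

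The list of PPAR targets and fatty acid oxidation genes did not move as a whole: 6 of 30 were lower and 2 higher in CLA18:3, with a median of -0.06. The trifunctional protein genes HADHA and HADHB stood at -0.05 and 0.01, and both missed the test. The members higher in CLA18:3 were TXNIP, which restrains glucose uptake (0.98 ± 0.12), and FABP5, a fatty acid binding protein (0.64 ± 0.09), with adjusted p of 2.2e-05 and 9.9e-05 (edgeR). ANGPTL4, a secreted lipase inhibitor and PPAR target, had 2 counts in all over the 4 CLA18:3 libraries and 232 counts over the 4 RSL3+CLA18:2 libraries. The ratio was 118 in favour of RSL3+CLA18:2, with an exact 95% counting interval of 32.3 to 981, which covers counting error only. RAB11B-AS1 (-1.99 ± 0.25, adjusted p = 2.2e-05, edgeR) lies on the opposite strand and its annotated interval touches the end of ANGPTL4. RAB11B-AS1 also overlaps RAB11B, again on the opposite strand. RAB11B averaged 104 CPM in CLA18:3 and 155 CPM in RSL3+CLA18:2 (-0.57 ± 0.07, adjusted p = 3.7e-05, edgeR). The strand setting of the counting is not given in the sources used here, so reads of these genes cannot be told apart where they meet. Among lipid droplet and triacylglycerol genes, 2 of 18 were lower in CLA18:3, GPAT3 (-0.31 ± 0.08) and LPIN2 (-0.42 ± 0.13), with adjusted p of 0.018 and 0.032 (edgeR), and neither passed without RSL3+CLA18:2 replicate 4 or without CLA18:3 replicate 2 (adjusted p 0.0506 to 0.0938). LPIN2 also missed the test without RSL3+CLA18:2 replicate 3 or CLA18:3 replicate 3 or 4.

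**Figure D2:**
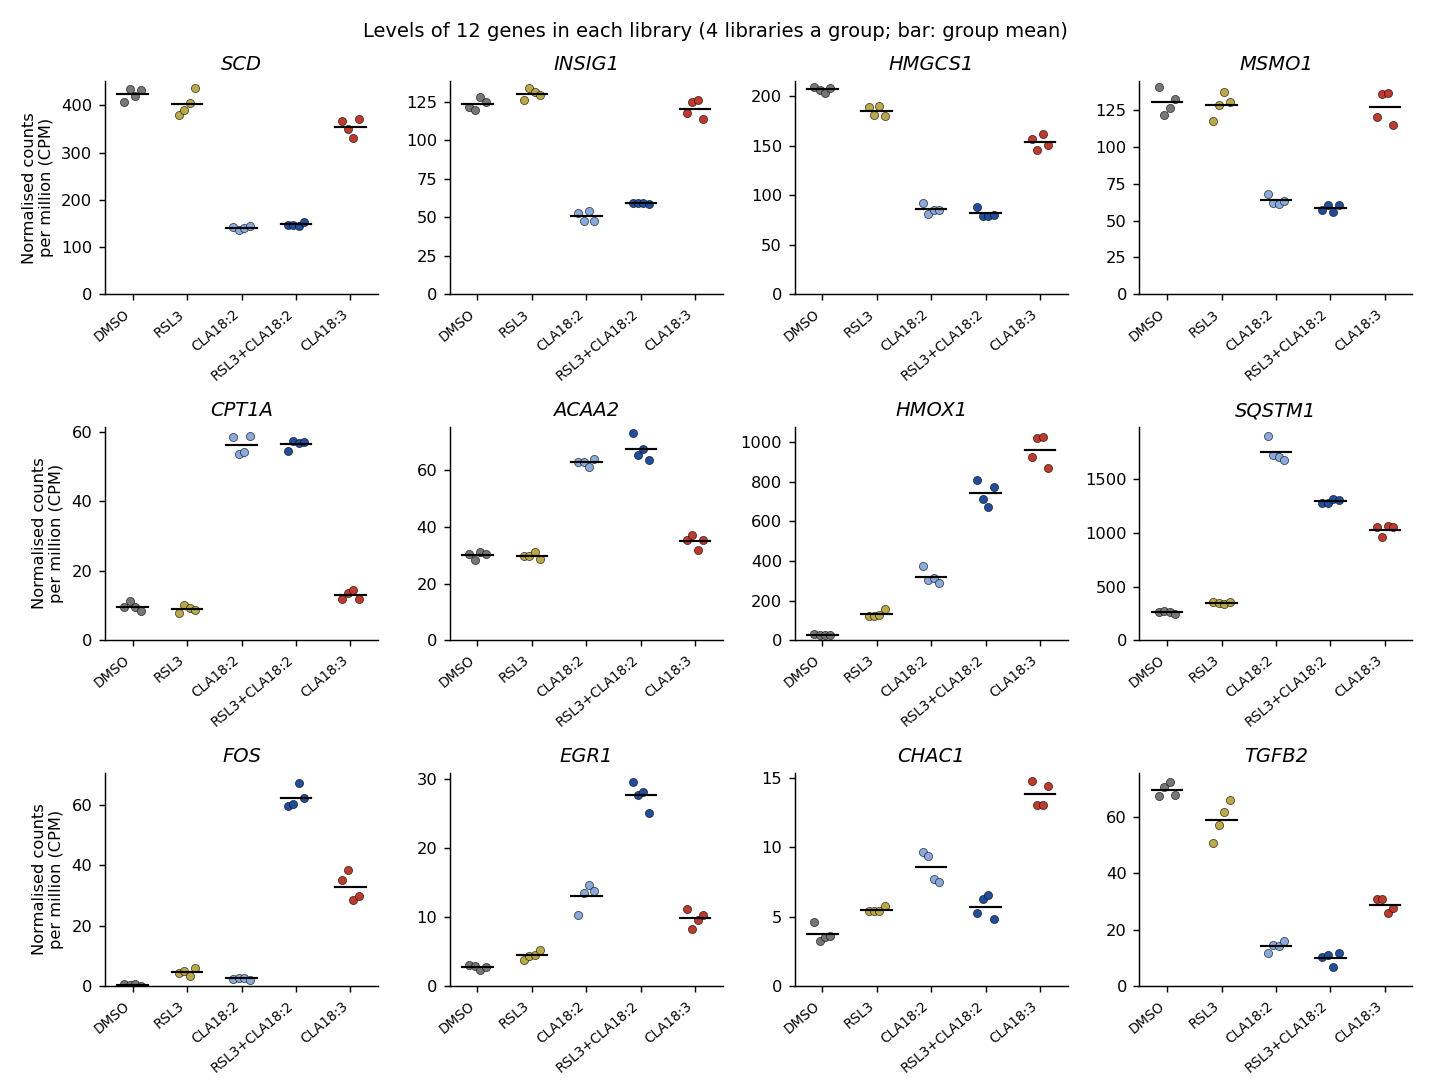
Levels in CPM (vertical axes, from 0) of 12 genes in each library of DMSO, RSL3, CLA18:2, RSL3+CLA18:2 and CLA18:3, with 4 points and a mean bar a group. SCD, INSIG1, HMGCS1, MSMO1, CHAC1, HMOX1 and TGFB2 are higher in CLA18:3 than in RSL3+CLA18:2, and CPT1A, ACAA2, SQSTM1, FOS and EGR1 are lower.

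NRF2 targets were mostly higher than DMSO in both conditions, and a minority differed between them. Of 32 tested, 28 were higher than DMSO in CLA18:3 and 30 in RSL3+CLA18:2, and none was lower in either. Directly compared, 8 were lower and 2 higher in CLA18:3, with a median of -0.12. SQSTM1, an autophagy receptor that also feeds back on NRF2, was at 1050, 959, 1061 and 1053 CPM in CLA18:3 and 1278, 1277, 1312 and 1305 CPM in RSL3+CLA18:2 (-0.33 ± 0.04, adjusted p = 2.4e-05, edgeR). GSR, glutathione reductase, was at 152, 132, 157 and 140 CPM against 195, 197, 206 and 183 CPM (-0.43 ± 0.06, adjusted p = 0.00011, edgeR). The groups overlapped for neither gene. GCLM, the modifier subunit of the enzyme that starts glutathione synthesis, was at 245, 252, 256 and 209 CPM against 279, 291, 304 and 288 CPM (-0.27 ± 0.06, adjusted p = 0.0052, edgeR). HMOX1 (chr22:35380361-35394214, plus strand), the haem-degrading oxygenase, went the other way at 925, 1021, 1026 and 868 CPM in CLA18:3 and 811, 714, 672 and 771 CPM in RSL3+CLA18:2 (0.37 ± 0.06, adjusted p = 0.00035, edgeR). Its groups did not overlap. HMOX1 averaged 26.9 CPM in DMSO, 133 CPM in RSL3 alone and 321 CPM in CLA18:2 alone, so both conditions stood above each of these. NQO1, a quinone reductase, and OSGIN1 missed the test, with 95% intervals of -0.29 to -0.03 and -0.03 to 0.32. The ARE letters TGACNNNGC occurred in 7 of 23 NRF2 target genes with a RefSeq window and in 16.1% of all genes with one.

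Ferroptosis regulators differed in both directions, with 5 of 40 higher and 7 lower in CLA18:3 and a median of -0.04. Over all genes tested, 6.4% were higher and 6.55% lower, and in the highest of 4 classes by level 31.2% passed. GPX4 (chr19:1103926-1106791, plus strand), the target of RSL3, was at 101.3, 104.5, 105.6 and 107.3 CPM in CLA18:3 and 91.3, 96.8, 72.7 and 74.5 CPM in RSL3+CLA18:2. Its groups did not overlap, and the log2 fold change was 0.32 ± 0.08 (adjusted p = 0.012, edgeR). However, GPX4 no longer passed once a trend with exon length, described below, was removed (adjusted p = 0.122, edgeR). SLC7A11, the cystine importer, was at 133, 139, 142 and 109 CPM in CLA18:3 and 166, 151, 148 and 181 CPM in RSL3+CLA18:2 (-0.31 ± 0.08, adjusted p = 0.012, edgeR). It missed the test without RSL3+CLA18:2 replicate 4 (adjusted p = 0.0585) and with the length trend removed (adjusted p = 0.0701). SLC3A2, the heavy chain that pairs with it, was in contrast higher at 364, 378, 378 and 401 CPM against 309, 285, 274 and 257 CPM (0.44 ± 0.06, adjusted p = 4.3e-05, edgeR). TFRC, the transferrin receptor, was lower by little (-0.16 ± 0.04, adjusted p = 0.012, edgeR) and also missed the test with the length trend removed (adjusted p = 0.126). With that trend removed, the counts of the list became 4 higher and 4 lower. ACSL4, which loads polyunsaturated chains into phospholipids, AIFM2, the coenzyme Q reductase FSP1, and FTH1, the ferritin heavy chain, missed the test, with 95% intervals of -0.11 to 0.14, -0.21 to 0.15 and -0.04 to 0.17. PTGS2, a gene often read as a mark of ferroptosis, was at 7.34 to 11.97 CPM in CLA18:3 and 10.8 to 12.7 CPM in RSL3+CLA18:2 and missed the test (-0.28, 95% interval -0.62 to 0.06).

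Several growth factor-responsive immediate early genes were lower in CLA18:3. Of 26 tested, 6 were lower and 4 higher, with a median of -0.06. EGR1 (chr5:138465490-138469315, plus strand), a zinc finger factor, was at 11.1, 8.19, 9.58 and 10.2 CPM in CLA18:3 and 29.5, 27.7, 28.1 and 25.1 CPM in RSL3+CLA18:2 (-1.49 ± 0.13, adjusted p = 1.2e-07, edgeR). FOSB was at 16.1, 13.4, 13.6 and 18.0 CPM against 39.1, 34.6, 36.6 and 44.1 CPM (-1.34 ± 0.12, adjusted p = 3.2e-07, edgeR). FOS, which like FOSB forms AP-1 with JUN proteins, was at 35.1, 38.3, 28.5 and 29.9 CPM against 59.7, 60.2, 67.4 and 62.4 CPM (-0.92 ± 0.10, adjusted p = 2.2e-06, edgeR). None of the 3 genes overlapped between the groups. FOSB lies within ERCC1 on the opposite strand, so reads of these genes cannot be told apart without the strand setting. FOS averaged 0.477 CPM in DMSO, 4.64 CPM in RSL3 alone and 2.50 CPM in CLA18:2 alone, so it stood above all of these in both conditions. The log2 fold change of FOS against DMSO was 6.06 in CLA18:3 and 6.98 in RSL3+CLA18:2. ATF3 and JUN missed the direct test, with 95% intervals of -0.21 to 0.13 and -0.17 to 0.06. CCN1, a matricellular protein also listed among the targets of YAP, was higher in CLA18:3 at 1123, 1062, 1098 and 1153 CPM against 763, 841, 832 and 788 CPM (0.46 ± 0.04, adjusted p = 8.9e-07, edgeR). The count of 4 higher genes fell to 2 when any of 6 single libraries was left out, namely RSL3+CLA18:2 replicate 1, 2, 3 or 4 or CLA18:3 replicate 1 or 4.

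The promoter of EGR1 (GRCh38.p14, chr5:138465229-138465478, plus strand, from RefSeq) is shown as that of the immediate early gene with the largest difference. Its capitals mark 2 CArG boxes, the element of serum response factor, 105 to 96 and 83 to 74 bases before the start. The box occurred in 3 of 22 genes of the list with a window, EGR1, EGR2 and SRF, and in 1.6% of all genes with one. FOS and FOSB had none in this window, which says only that these letters are not in it.
EGR1: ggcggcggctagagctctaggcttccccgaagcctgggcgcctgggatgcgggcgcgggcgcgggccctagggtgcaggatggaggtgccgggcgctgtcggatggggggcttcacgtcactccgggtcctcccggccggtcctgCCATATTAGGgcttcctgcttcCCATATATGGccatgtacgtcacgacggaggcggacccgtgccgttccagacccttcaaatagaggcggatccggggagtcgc

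Amino acid stress genes were mostly higher than DMSO in both conditions, and a subset was higher in CLA18:3 than in RSL3+CLA18:2. Of 30 tested ATF4 and integrated stress response genes, 20 were higher than DMSO in each condition. From mean CPM, the list's median log2 ratio to DMSO was 0.62 in CLA18:2 alone, 0.50 in CLA18:3 and 0.45 in RSL3+CLA18:2. In the direct comparison 12 were higher and 1 lower in CLA18:3, with a median of 0.19. CHAC1 (chr15:40952962-40956519, plus strand), which degrades glutathione, was at 14.8, 13.1, 13.1 and 14.5 CPM in CLA18:3 and 5.24, 6.25, 6.55 and 4.86 CPM in RSL3+CLA18:2 (1.27 ± 0.16, adjusted p = 2.2e-05, edgeR). DDIT3, the factor CHOP, was at 11.4, 17.1, 14.9 and 17.5 CPM against 8, 8.14, 9.07 and 5.54 CPM (0.99 ± 0.18, adjusted p = 0.00083, edgeR). Groups overlapped for neither gene. ATF4 itself was at 528, 566, 530 and 581 CPM against 438, 440, 464 and 448 CPM (0.30 ± 0.05, adjusted p = 0.00036, edgeR). The member lower in CLA18:3 was SLC38A2, a neutral amino acid carrier, at 365, 391, 413 and 361 CPM against 523, 507, 530 and 545 CPM (-0.46 ± 0.05, adjusted p = 7.4e-06, edgeR).

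Of 26 unfolded protein response genes, 6 were higher and 4 lower in CLA18:3, with a median of 0.08. From mean CPM, the list's median log2 ratio to DMSO was 0.58 in CLA18:2 alone, 0.46 in CLA18:3 and 0.45 in RSL3+CLA18:2. HSPA5, the chaperone BiP of the endoplasmic reticulum, was at 2605, 2603, 2615 and 2572 CPM in CLA18:3 and 1984, 1938, 1945 and 2032 CPM in RSL3+CLA18:2 (0.40 ± 0.03, adjusted p = 5.4e-08, edgeR). HSPA5 averaged 2682 CPM in CLA18:2 alone, whereas CHAC1 averaged 8.57 CPM there, below its CLA18:3 mean of 13.9 CPM. DNAJB9, a co-chaperone of HSPA5, was at 55.9, 63.2, 62.2 and 49.0 CPM against 39.0, 42.8, 42.1 and 37.4 CPM (0.51 ± 0.09, adjusted p = 0.00079, edgeR). Both genes were separated between the groups. EDEM1, which sends misfolded glycoproteins to degradation, was lower in CLA18:3 at 163, 161, 161 and 158 CPM against 207, 206, 208 and 219 CPM (-0.38 ± 0.05, adjusted p = 4.2e-05, edgeR). SEC24D, a coat protein of export vesicles, had the same log2 value (-0.38 ± 0.06, adjusted p = 0.00037, edgeR). Among cytosolic heat shock genes 6 of 19 were higher and none was lower, with a median of 0.12. HSPA6, a strictly inducible HSP70, was at 9.34, 7.80, 14.04 and 11.5 CPM against 4.26, 3.56, 4.49 and 3.74 CPM (1.41 ± 0.20, adjusted p = 0.00012, edgeR). DNAJB1, an HSP40, was at 255, 258, 250 and 258 CPM against 201, 180, 182 and 175 CPM (0.47 ± 0.05, adjusted p = 8.9e-06, edgeR). The abundant HSP90AA1 and HSP90AB1 stood at 0.05 and -0.04 and missed the test.

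Promoters of CHAC1 and HSPA5 are shown as those of the stress genes named first. In CHAC1 (GRCh38.p14, chr15:40953221-40953470, plus strand, from RefSeq) the capitals mark TTGCATCA, the reverse complement of the ATF4 composite letters TGATGNAA, 209 to 202 bases before the start. These letters occurred in 9 of 27 genes of the ATF4 list with a window and in 4.46% of all genes with one. In HSPA5 (GRCh38.p14, chr9:125241344-125241593, minus strand, from RefSeq) the capitals mark the ER stress element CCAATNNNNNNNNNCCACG, 66 to 48 bases before the start. It occurred in 6 of 23 genes of the unfolded protein response list, among them HSPA5, XBP1 and CALR, and in 0.0916% of all genes. The heat shock letters GAANNTTC occurred in 12 of 20 heat shock genes, HSPA6 and DNAJB1 included, and in 8.21% of all genes. Both strands were searched, and the members of each list with the letters include genes that missed the test, such as ATF3 and CALR.
CHAC1: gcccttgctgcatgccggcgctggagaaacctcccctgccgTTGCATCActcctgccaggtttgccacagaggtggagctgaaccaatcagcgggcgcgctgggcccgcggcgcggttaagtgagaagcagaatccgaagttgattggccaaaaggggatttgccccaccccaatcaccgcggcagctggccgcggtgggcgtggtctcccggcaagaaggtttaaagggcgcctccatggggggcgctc
HSPA5: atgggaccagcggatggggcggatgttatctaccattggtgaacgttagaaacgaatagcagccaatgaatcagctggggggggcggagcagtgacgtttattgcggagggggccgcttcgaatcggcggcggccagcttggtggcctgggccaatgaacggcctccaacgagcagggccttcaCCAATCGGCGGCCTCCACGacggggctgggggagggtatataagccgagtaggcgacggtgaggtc

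**Figure D3:**
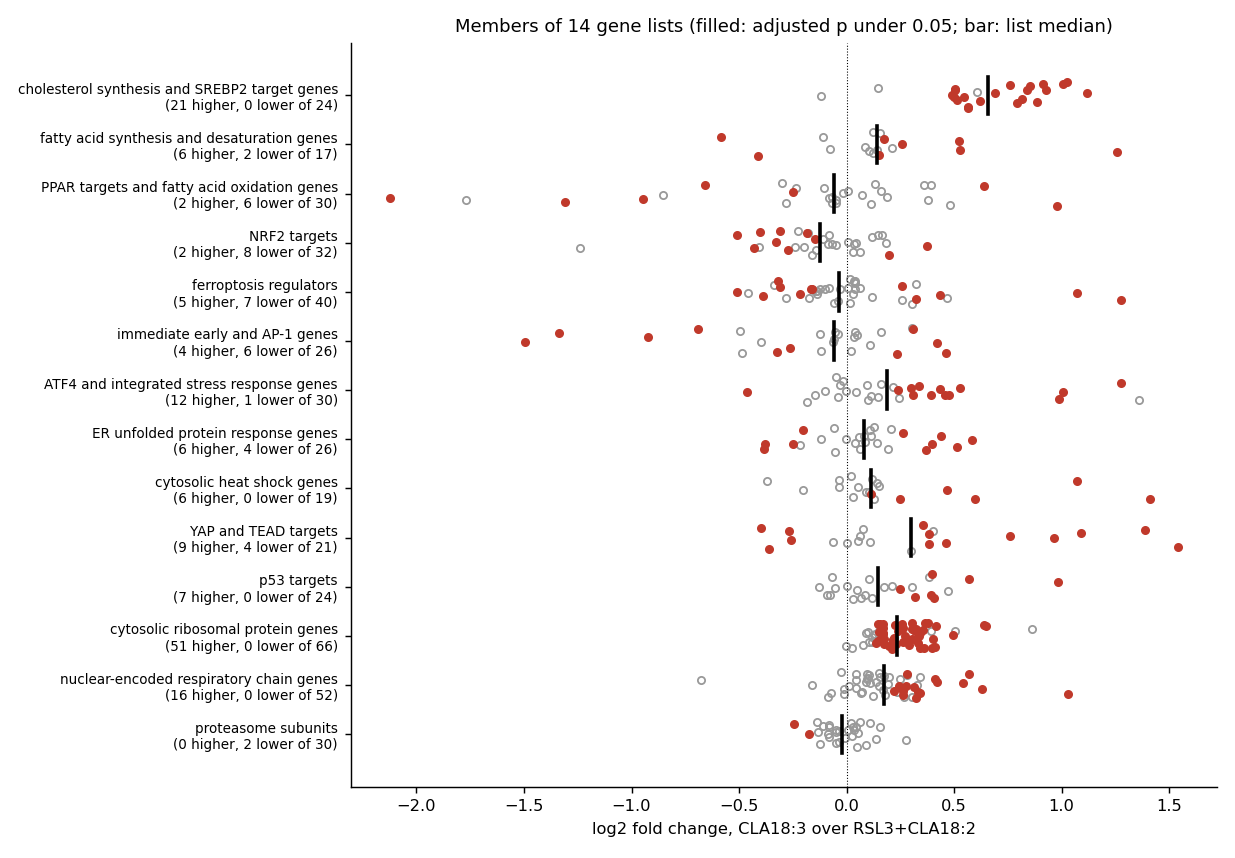
log2 fold changes of CLA18:3 over RSL3+CLA18:2 (horizontal axis) for the tested members of 14 gene lists, filled where the adjusted p was under 0.05, with a bar at each list's median; ANGPTL4 is left out because its counts in CLA18:3 were near 0. The sterol list lies to the right around 0.66, the ribosomal protein list has its median at 0.23 and reaches from -0.003 to 0.86, and the proteasome list lies around -0.02.

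Targets of YAP and TEAD, coactivator and factors of growth and cell tension, differed mostly upward in CLA18:3. Of 21 targets of YAP and TEAD, 9 were higher and 4 lower, with a median of 0.30, whereas 15 were lower than DMSO in CLA18:3 and 19 in RSL3+CLA18:2. TGFB2 (chr1:218346235-218444619, plus strand), a transforming growth factor beta ligand, was at 30.7, 30.7, 26.0 and 27.6 CPM in CLA18:3 and 10.3, 10.99, 6.69 and 11.6 CPM in RSL3+CLA18:2 (1.54 ± 0.15, adjusted p = 8.8e-07, edgeR). It averaged 69.4 CPM in DMSO, above both conditions. EDN1, the vasoconstrictor endothelin-1, was at 26.5, 29.7, 30.5 and 27.01 CPM against 10.9, 8.89, 10.99 and 12.6 CPM (1.39 ± 0.13, adjusted p = 3.4e-07, edgeR), with 28.3 CPM in DMSO. F3, tissue factor, was at 74.0, 68.3, 69.7 and 63.4 CPM against 33.7, 34.8, 35.4 and 37.2 CPM (0.96 ± 0.08, adjusted p = 9.4e-08, edgeR), with 68.4 CPM in DMSO. None of the 3 genes overlapped between the groups. ANKRD1, a YAP target of muscle and stromal cells, was at 724, 746, 728 and 688 CPM against 401, 416, 451 and 437 CPM (0.76 ± 0.05, adjusted p = 3.4e-09, edgeR). The 4 lower members were PTPN14, DLC1, ASAP1 and TEAD1, and the count fell to 2 without RSL3+CLA18:2 replicate 4, without CLA18:3 replicate 4 or with the length trend removed.

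Of 39 extracellular matrix and adhesion genes, 9 were lower and 4 higher in CLA18:3, with a median of -0.07. ITGA2, the collagen-binding integrin alpha-2, was at 341, 335, 351 and 307 CPM in CLA18:3 and 643, 638, 631 and 736 CPM in RSL3+CLA18:2 (-0.99 ± 0.06, adjusted p = 1.3e-09, edgeR). THBS1, thrombospondin-1, was at 2777, 2539, 2562 and 2394 CPM against 1773, 1746, 1724 and 1885 CPM (0.53 ± 0.04, adjusted p = 5.4e-08, edgeR). Both genes were separated between the groups. COL1A1 missed the test (95% interval -0.05 to 0.29). With the length trend removed the counts of the list became 5 lower and 7 higher. Of 24 p53 targets, 7 were higher and none was lower. PLK2, a kinase of the polo family, was at 136, 142, 134 and 137 CPM against 68.2, 73.2, 72.9 and 63.4 CPM (0.98 ± 0.06, adjusted p = 2.5e-09, edgeR). CDKN1A, the cyclin-dependent kinase inhibitor p21, had 0.25 ± 0.05 (adjusted p = 0.0013, edgeR). MDM2 stood at 0.00 with a 95% interval of -0.11 to 0.11.

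Ribosomal protein genes were mostly higher in CLA18:3 by a small amount. Of 66 cytosolic ribosomal protein genes, 51 were higher and none was lower, with a median of 0.23, the single genes running from -0.003 to 0.86. RPL11 was at 1145, 1117, 1074 and 1113 CPM in CLA18:3 and 927, 895, 936 and 835 CPM in RSL3+CLA18:2 (0.31 ± 0.04, adjusted p = 0.0001, edgeR). Their mRNAs took 6.05 to 6.35% of counts in the CLA18:3 libraries and 5.03 to 5.7% in RSL3+CLA18:2, with no overlap (exact permutation test, 2-sided, p = 0.0286, the smallest that 70 splits allow). Against DMSO, 63 were higher and none was lower in CLA18:3, and 35 were higher and 3 lower in RSL3+CLA18:2. Of 52 nuclear genes of the respiratory chain, 16 were higher and none was lower, with a median of 0.18. COX8A, a subunit of cytochrome oxidase, was at 98.0, 92.3, 107 and 117 CPM against 80.9, 76.2, 60.8 and 50.2 CPM (0.63 ± 0.11, adjusted p = 0.00077, edgeR). The respiratory count was 9 without RSL3+CLA18:2 replicate 4 and 10 without CLA18:3 replicate 4.

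The difference followed exon length, taken over all annotated exons of a gene. Genes were put into 4 classes of equal size by exon length. The ribosomal protein and respiratory chain lists had median exon lengths of 3136.5 and 2661.5 bases, in the second class. Of that class (2464 to 4410 bases), 8.71% were higher and 2.65% lower in CLA18:3. Of the shortest class (53 to 2462 bases), 8.63% were higher and 0.826% lower in CLA18:3. Of the longest class (6988 to 205012 bases), 3.15% were higher and 16.5% lower. Relative to DMSO, the median log2 level of the shortest class minus that of the longest was 0.172 to 0.294 in the CLA18:3 libraries and -0.159 to 0.0341 in the RSL3+CLA18:2 libraries. The groups did not overlap in this measure, and the DMSO libraries lay between -0.0445 and 0.0354. With the trend removed by a smooth fit in each library, an alternative chosen after seeing the data, 1624 genes passed, 824 higher and 800 lower, and 1325 of them were among the 2115. The higher counts were then 40 of the ribosomal protein genes, 11 of the respiratory chain genes, and again 21 of the sterol genes. The part of the length trend in each difference was not tested further.

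**Figure D4:**
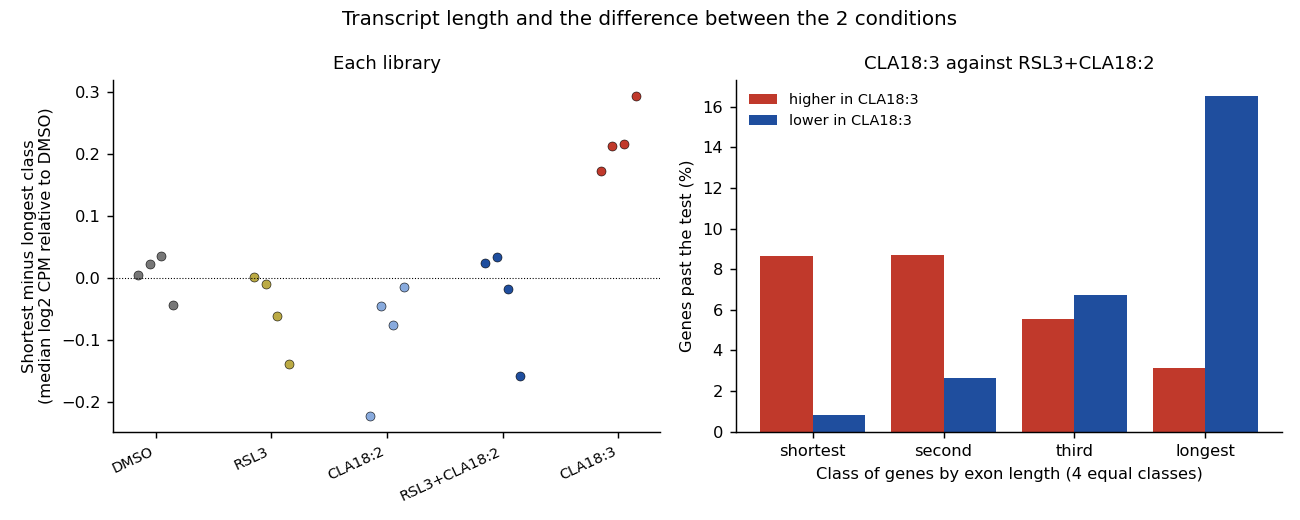
Left, the median log2 level of the shortest class of genes minus that of the longest, relative to DMSO, in each of 4 libraries a group; the CLA18:3 libraries lie at 0.172 to 0.294, above every other library shown. Right, the percentage of genes in each class of exon length that were higher (red) or lower (blue) in CLA18:3 than in RSL3+CLA18:2.

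The mRNAs encoded by mitochondrial DNA varied between libraries of one group. They took 0.356, 1.23, 1.63 and 1.64% of counts in CLA18:3 and 0.263, 0.313, 1.68 and 0.309% in RSL3+CLA18:2. The groups overlapped (exact permutation test, 2-sided, p = 0.286). The median log2 fold change over the 13 mRNAs was 0.94, with only MT-ND3 past the test (1.23 ± 0.33, adjusted p = 0.018, edgeR). All 13 passed without RSL3+CLA18:2 replicate 3 and 5 without CLA18:3 replicate 1, while MT-ND3 missed the test without RSL3+CLA18:2 replicate 2 or 4 or CLA18:3 replicate 3 or 4 (adjusted p 0.056 to 0.0734). The count also turned on the method: none passed in DESeq2 (MT-ND3 at adjusted p = 0.139), 10 passed in limma voom with library weights, 12 with a replicate block and 13 with no low-count filter.

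Proteasome and proliferation genes differed little between the conditions. Of 30 proteasome subunits, 29 were higher than DMSO in each condition, with medians of 0.69 in CLA18:3 and 0.70 in RSL3+CLA18:2, and 2 were lower in CLA18:3 in the direct comparison. These were PSMD1 (-0.24 ± 0.05) and PSMB2 (-0.18 ± 0.05), with adjusted p of 0.0014 and 0.015 (edgeR). Over all genes tested, 6.55% were lower, a share close to that of the proteasome list. Of 27 mitotic genes, 2 were higher and 3 lower, and of 36 DNA replication genes 4 were higher and none lower. With the length trend removed, the mitotic counts became 0 higher and 2 lower. CCNA2, cyclin A2, was at 153, 162, 166 and 158 CPM in CLA18:3 and 161, 160, 172 and 161 CPM in RSL3+CLA18:2 (95% interval -0.14 to 0.08), below its DMSO mean of 222 CPM. MKI67, the proliferation marker Ki-67, was lower in CLA18:3 at 286, 272, 270 and 239 CPM against 356, 344, 301 and 369 CPM (-0.36 ± 0.07, adjusted p = 0.00093, edgeR). The 4 replication genes did not hold up: between 0 and 2 passed when RSL3+CLA18:2 replicate 2, 3 or 4 or CLA18:3 replicate 1, 2 or 4 was left out.

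Inflammatory genes gave 1 higher gene of 19, NFKB2 (0.26 ± 0.07, adjusted p = 0.018, edgeR), which missed the test without RSL3+CLA18:2 replicate 1 (adjusted p = 0.0643). Over all genes tested, 6.4% were higher, a share close to that of this list. CXCL8, the chemokine interleukin-8, was at 19.3, 23.0, 28.6 and 18.1 CPM in CLA18:3 and 23.3, 21.8, 29.3 and 24.2 CPM in RSL3+CLA18:2 (95% interval -0.44 to 0.14), against 1.76 CPM in DMSO. Of 20 interferon response genes, 4 were higher. Of these, IFI27 rested on 1 library, with 1.32, 0.679, 1.63 and 15.96 CPM in CLA18:3 and at most 0.806 CPM in RSL3+CLA18:2, and missed the test without CLA18:3 replicate 4 (adjusted p = 0.36). The interferon count was 1 or 2 without any of 6 libraries, which were CLA18:3 replicate 2 or 4 and each of the RSL3+CLA18:2 replicates. SLC2A1, the glucose transporter GLUT1, was the glycolysis gene with the smallest p, at 386, 364, 353 and 387 CPM against 286, 272, 245 and 246 CPM (0.51 ± 0.06, adjusted p = 8.4e-06, edgeR). NDRG1, a hypoxia-responsive gene, was lower in CLA18:3 at 97.2, 94.3, 102 and 107 CPM against 130, 125, 134 and 131 CPM (-0.38 ± 0.06, adjusted p = 0.00024, edgeR). In the whole glycolysis and hypoxia list 3 of 32 were higher and 3 lower, and the higher count was 1 without RSL3+CLA18:2 replicate 3 or CLA18:3 replicate 1, and the lower count 5 without CLA18:3 replicate 3.

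Of 32 lysosome and autophagy genes, 3 were higher and 5 lower, and the lower count was 3 without RSL3+CLA18:2 replicate 3 or 4 or CLA18:3 replicate 2 or 4. Of 40 ribosome biogenesis genes, 9 were higher and 1 lower, and the higher count was 4 or 5 without RSL3+CLA18:2 replicate 3 or 4 or CLA18:3 replicate 4. Of 19 cytosolic aminoacyl-tRNA synthetases 2 were higher, of 16 histone genes 2 were higher, and of 10 LXR targets 1 was lower. Over all genes tested, 6.4% were higher and 6.55% lower, so such small counts do not set these lists apart. ABCA1, the sterol exporter controlled by LXR, missed the test with a 95% interval of -0.36 to 0.34. Of 4 metallothioneins, MT1X was higher (1.14 ± 0.20, adjusted p = 0.00065, edgeR) and MT2A lower (-0.18 ± 0.04, adjusted p = 0.0062, edgeR). Metallothionein genes are near-identical copies, so the split of reads between them is uncertain.

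Outside the lists, genes of low level led the ranking by fold. PTX3, a secreted pattern recognition protein, was at 16.7, 23.3, 21.6 and 23.97 CPM in CLA18:3 and 9.73, 10.5, 5.45 and 7.74 CPM in RSL3+CLA18:2 (1.36 ± 0.18, adjusted p = 3.8e-05, edgeR). CFAP58, a cilium protein gene, was at 6.06, 4.27, 5.33 and 4.68 CPM against 1.09, 1.99, 2.47 and 1.12 CPM (1.60 ± 0.30, adjusted p = 0.0014, edgeR). SCRIB, a polarity scaffold, was at 36.2, 23.8, 32.4 and 23.8 CPM against 16.1, 10.1, 5.40 and 8.64 CPM (1.54 ± 0.22, adjusted p = 0.00011, edgeR). The 3 genes were separated between the groups, which the rule for naming them required. SCRIB also varied widely between libraries of other groups. It ran from 4.59 to 51.7 CPM in CLA18:2 alone, 4.55 to 35.1 CPM in RSL3 alone and 10.7 to 35.7 CPM in DMSO. On the lower side, ATP2B4, a plasma membrane calcium pump, was at 51.5, 37.8, 41.4 and 38.8 CPM against 79.8, 78.2, 74.5 and 97.7 CPM (-0.96 ± 0.10, adjusted p = 2.5e-06, edgeR). LPCAT1, a lysophospholipid acyltransferase, was at 9.34, 7.997, 5.22 and 8.05 CPM against 13.4, 19.6, 16.3 and 14.6 CPM (-1.06 ± 0.18, adjusted p = 0.00045, edgeR). The others of the 12 largest on the higher side were EEF1D, CACFD1, RASSF7, TPM1-AS, ZNF295-AS1 and LINC02057, with log2 fold changes of 1.36 to 1.67 and at most 11.8 CPM in any of the 8 libraries. TPM1-AS overlaps TPM1 and ZNF295-AS1 overlaps ZBTB21 on the opposite strand, EEF1D overlaps TIGD5, PTX3 lies within VEPH1, LINC02057 overlaps SMIM15-AS1, and ARMH4 overlaps PSMA3 and ACTR10, also on opposite strands, so their reads cannot be told apart without the strand setting. KCTD16, HS6ST3 and ARMH4 were lower with log2 values of -1.27, -1.09 and -0.93 and at most 6.18 CPM. Among these low genes, CACFD1 missed the test without CLA18:3 replicate 4 (adjusted p = 0.0746), RASSF7 without replicate 4 of either group (0.0562 and 0.115), ZNF295-AS1 without RSL3+CLA18:2 replicate 4 or CLA18:3 replicate 2, and HS6ST3 without RSL3+CLA18:2 replicate 4 or CLA18:3 replicate 3. KCTD16 missed it without RSL3+CLA18:2 replicate 2, 3 or 4 or CLA18:3 replicate 1 or 3, and ARMH4 without RSL3+CLA18:2 replicate 1 or 3 or CLA18:3 replicate 2 or 4, with adjusted p of 0.0525 (HS6ST3) to 0.127 (KCTD16) over these 4 genes.

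The libraries carried many, though not all, of the listed markers of a mesenchymal line. VIM ran from 2380 to 2890 CPM, FN1 from 5240 to 6470 CPM and SPARC from 2000 to 2730 CPM over the 8 libraries. Other members were near the floor. FAP and PDGFRA, which were not tested, reached at most 0.495 and 0.381 CPM, and THY1 and S100A4 at most 0.824 and 1.37 CPM. Of 18 mesenchymal and fibroblast markers 16 were tested, with 4 higher and 2 lower in CLA18:3, and the 2 lower, COL6A3 and ZEB1, missed the test with the length trend removed. Epithelial EPCAM and CDH1 reached at most 0.196 and 0.637 CPM, and KRT5, ESRP1, GRHL2, OVOL1 and ELF3 were at 0 in all 8 libraries. The epithelial keratins KRT8 and KRT18 were present at 456 to 593 and 135 to 191 CPM, and together with KRT7 they were the 3 of 6 tested epithelial genes that were higher in CLA18:3 (0.24, 0.37 and 1.14). The other 3, KRT14, CLDN4 and ESRP2, missed the test, with log2 values of 0.84, -0.03 and -1.30. The summed level of the 6 tested epithelial genes was 738 to 794 CPM in CLA18:3 and 599 to 676 CPM in RSL3+CLA18:2. Among 16 blood cell markers, PTPRC, CD3E and HBB were at 0 in all 8 libraries, and CSF1R alone was tested and missed the test.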

How the data were processed

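RNA-seq of HT-1080 cells gave 28 libraries in 7 groups of 4. The deposited values are counts of reads per gene, which the authors made with HISAT, SAMtools and featureCounts on hg38, and DESeq2 is also named, per the submitters' processing notes; versions, annotation and strand setting are not given in the sources used here. Doses follow the design text, in µM for the fatty acids, where the sample labels write mM. All mapped columns were used.

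Genes were kept by edgeR's filterByExpr over the 28 libraries (16325 of 60286 genes, holding 99.9% of counts), TMM factors came from all 28, and edgeR 4.0.16 (R 4.3.3) tested each comparison by glmQLFit and glmQLFTest on its 8 libraries, with Benjamini-Hochberg adjustment over all genes and a threshold of 0.05. The SE was taken from the size of the log2 value and its F statistic. On simulated counts for CLA18:3 against RSL3+CLA18:2 (50 changed genes per fold size among 16325), 14% of 1.25-fold, 48% of 1.5-fold, 78% of 2-fold and 94% of 4-fold changes were recovered, with 4 false calls among 16125 unchanged genes. The changed genes were not drawn from those of lowest level, so recovery there was not measured. The simulated counts gave both groups the same spread and held no length trend, so the false calls do not cover these features. Alternatives were limma 3.58.1, DESeq2 1.42.0, RLE factors, other filters, all 28 libraries in the fit, a replicate block, each library left out, and a length trend removed by lowess (span 0.3). Positions and exon lengths come from GENCODE 29 by symbol (57032 of 60286 matched) and promoters from RefSeq (GRCh38.p14).

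Named genes are the 12 largest each way among genes past the test with separated ranges and a mean of at least 2 CPM, up to 4 members of each of 31 lists with the smallest p, and 35 chosen genes; further list members were named after their values were seen. Of 873 list entries 785 were tested. Results for some genes are not reported here. The members and lists were chosen with earlier results of these data known. Replicate numbers were not taken as pairs, since the labels do not say that they mark shared cultures or days.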

Additional observations from a re-analysis of the deposited data

Results flagged for a closer look

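In 276 checks of the 4 libraries of a group for a single value far from the other 3, 16 stood apart, and chance alone flags about 1 in 20 groups. In CLA18:3, SQSTM1 was low in replicate 2 at 959 CPM (others 1050 to 1060), ANGPTL4 had its only counts in replicate 1 (0.0978 CPM, others at 0), and IFI27 was high in replicate 4 at 16 CPM (others 0.679 to 1.63). In RSL3+CLA18:2 replicate 3, mitochondrially encoded mRNAs took 1.68% of counts (others 0.263 to 0.313%), MT-ND3 was at 815 CPM (others 218 to 265), and HERPUD1, ISG15 and CCNA2 were high at 119, 14.8 and 172 CPM. In RSL3+CLA18:2 replicate 4, ITGA2 and TFRC were high at 736 and 1240 CPM, and FADS2, KRT7 and ZNF295-AS1 were low at 84.9, 2.03 and 0.72 CPM. In RSL3+CLA18:2 replicate 1, HMGCS1 was high at 88.1 CPM and CPT1A low at 54.4 CPM, the latter against 56.9 to 57.2 CPM in the others. AKR1B10 was low in RSL3+CLA18:2 replicate 2 at 6.68 CPM. Apart from IFI27 and MT-ND3, whose calls are given with and without these libraries above, TFRC, ISG15 and ZNF295-AS1 also lost their call in at least 1 alternative.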

How the results depend on the processing

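The 2115 genes that differed between CLA18:3 and RSL3+CLA18:2 became 4166 with all 28 libraries in the fit, which takes 1 spread for all 7 groups, and 1362 to 1884 with 1 library left out, the lowest without RSL3+CLA18:2 replicate 4. The 98 genes at least 2-fold apart became 65 in DESeq2, 372 with all 28 libraries in the fit, and 63 to 108 with 1 library left out, again lowest without RSL3+CLA18:2 replicate 4. The counts against DMSO ran from 4111 to 5337 (CLA18:3) and from 4619 to 5852 (RSL3+CLA18:2) with 1 library left out. None of the named genes that passed the test changed direction in an alternative. Some that missed it took either sign, such as AIFM2 (log2 fold changes of -0.086 to 0.064) and ABCA1 (-0.106 to 0.121). Some lists changed their balance. With the length trend removed, extracellular matrix genes went from 4 higher and 9 lower to 7 and 5, and DNA replication genes from 4 and 0 to 2 and 2.

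Same-numbered libraries showed little shared deviation (correlations of -0.0256 to 0.0257 between the 2 conditions), and the shared numbers were not taken as pairs. Of the 4 CLA18:3 libraries, 2 correlated best with the RSL3+CLA18:2 library of their own number, so this check cannot exclude pairing. With a replicate block, 1899 genes differed between the conditions, 84 of them at least 2-fold, 4651 between CLA18:3 and DMSO, and 5652 between RSL3+CLA18:2 and DMSO.

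Of 134 named genes tested, 119 passed in the reported fit, 89 of them in every alternative and 30 not in at least 1; of 15 that missed, NQO1 passed in at least 1. Removing the length trend and leaving out RSL3+CLA18:2 replicate 4 each cost 17 of these calls, and leaving out CLA18:3 replicate 4 cost 13. Calls were fewer among genes of low level: with genes in 4 equal classes by level, 0.735% passed in the lowest class and 31.2% in the highest. The part of sequencing depth in this was not tested.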

Other observations

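Some genes with actin-related roles stood among the 200 with the smallest p; they were picked after their values were seen, with no list or count behind them, and they went both ways. MYO10, an unconventional myosin, and AFDN, the actin-binding junction protein afadin, were lower in CLA18:3 (log2 fold changes -0.47 and -0.46, adjusted p = 3.5e-05 and 7.1e-05, edgeR), and the other 5 named here were higher. MYO10 and AFDN, with exon lengths of 13963 and 13720 bases, were in the longest class of genes, as was CALD1 (9843 bases) among those higher. CNN2, a calponin, averaged 319 CPM in CLA18:3 and 217 CPM in RSL3+CLA18:2 (log2 fold change 0.56 ± 0.05 SE, adjusted p = 1.9e-07, edgeR), with 432 CPM in DMSO. TAGLN, transgelin, averaged 514 and 375 CPM (0.45 ± 0.05, adjusted p = 4.9e-06, edgeR), with 512 CPM in DMSO. CALD1, caldesmon, averaged 687 and 522 CPM (0.40 ± 0.05, adjusted p = 3.6e-05, edgeR), and TPM2, a tropomyosin, 972 and 775 CPM (0.33 ± 0.04, adjusted p = 3.5e-05, edgeR). ACTG1, gamma-actin, averaged 8353 and 7200 CPM (0.21 ± 0.03, adjusted p = 4.4e-05, edgeR), with 8262 CPM in DMSO.

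Another 3 genes with ceramide-related roles were picked from the same 200 after their values were seen, with no list or count behind them. CERT1, which carries ceramide from the endoplasmic reticulum to the Golgi, averaged 44.0 CPM in CLA18:3 and 74.2 CPM in RSL3+CLA18:2 (-0.75 ± 0.09, adjusted p = 7.4e-06, edgeR), with 38.3 CPM in DMSO. SPTLC2, a subunit of the enzyme that starts sphingolipid synthesis, averaged 85.8 and 126 CPM (-0.55 ± 0.06, adjusted p = 1.9e-06, edgeR), with 76.0 CPM in DMSO. CERK, ceramide kinase, averaged 221 and 315 CPM (-0.51 ± 0.05, adjusted p = 1.3e-06, edgeR), with 179 CPM in DMSO. In CLA18:2 alone, CERT1, SPTLC2 and CERK averaged 81.3, 146 and 289 CPM. CERT1 and SPTLC2, with exon lengths of 18138 and 9143 bases, were in the longest class, of which 16.5% were lower in CLA18:3. CERK, at 4938 bases, was not. The part of the length trend in these differences was not tested.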
